A study of Arabidopsis thaliana with 24 samples.

Results

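The genes described here were low in blue light and high again when blue light was combined with abscisic acid (ABA). They were chosen on the wild type (WT) arrays alone. A probe set belonged when its mean signal in darkness was at least 100 and at least 3 times its mean in blue light, and when its mean in blue light with ABA was also at least 3 times its mean in blue light. Means under 20 were first set to 20, and control and plastid-encoded probe sets were left out. Of 22810 probe sets, 35 met the rule. The annotation gave 1 gene to 15 of them, several genes to 2 and no gene to 18, and probe sets of the last 2 kinds are called by their identifier. For brevity all 35 are called genes below.

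The data were signals from Affymetrix arrays hybridised with total RNA from 10-day-old Arabidopsis thaliana seedlings of the Columbia ecotype. Each of 4 genotypes was grown in 3 conditions, with 2 arrays labelled as biological replicates in each of the 12 groups. The genotypes were WT, the atmyc2 mutant, the cop1-6 mutant and the atmyc2 cop1-6 double mutant. The conditions were constant darkness, constant blue light of 35 µmol per second and square metre, and the same blue light on plates holding ABA at 0.5 (unit written as µm in the labels), all at 22 degrees Celsius. Seedlings spent their whole growth in these conditions, so a comparison sets differently grown seedlings side by side rather than following a short treatment. Which kind of allele atmyc2 is, and whether replicate seedlings were grown on separate occasions, was not given in the sources used here, and the p-values below measure the spread between these arrays.

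Germinating Arabidopsis seedlings live on stored oil and protein until photosynthesis takes over. Oil is turned into sugar through beta-oxidation, the glyoxylate cycle and gluconeogenesis, and seedlings kept without light also break down amino acids. ABA is the hormone of seed dormancy and of the response to water shortage, and it slows the change from seed to seedling. COP1 is an E3 ubiquitin ligase that in darkness marks transcription factors of light signalling for destruction, and cop1-6 is a partial loss allele. AtMYC2 is a DNA-binding regulator of the bHLH family known from jasmonate, ABA and blue light signalling.

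All 24 arrays had been scaled alike, with trimmed means of 100.01 at a trim of 2%, and replicates correlated with Pearson's r between 0.944 and 0.978. Array controls followed growth condition. On blue light arrays the added poly-A control RNAs averaged 5.50 to 14.1, and on ABA arrays 86.8 to 142. Their dark averages were 969 to 1109 in WT and atmyc2 and 235 to 380 in both lines carrying cop1-6. The control probe set for large-subunit ribosomal RNA ranged from 4.6 to 189.9 on dark arrays and from 28.5 to 96.3 on blue light arrays. With ABA it ranged from 769.5 to 2762.5, so it was higher on every ABA array than on any other. Array processing and growth condition can therefore not be told apart in any comparison between conditions, nor can processing and genotype where atmyc2 is set against the double mutant in darkness. The cop1-6 arrays with ABA were an unlike pair. At the 35 genes, 9 differed at least 2-fold between these replicates, and replicate 1 lay closest to a double mutant ABA array (r = 0.970) while replicate 2 lay closest to a WT ABA array (r = 0.956). The blue light arrays of the double mutant were unlike too, with 12 of the 35 at least 2-fold apart. Their r of 0.944 was the lowest of all pairs, and each lay closer to a cop1-6 blue light array (r = 0.948 and 0.965). Both the light and the ABA comparison of the double mutant use these arrays. Of marker genes, the green tissue list (3 of 7 measured) summed to 818 to 1099.6 in dark WT and atmyc2, to 2862 to 3582 in dark lines carrying cop1-6, and higher on every blue light array. The seed list had 1 of 17 genes measured, the oil body gene OLEO3, and the root list 3 of 10, while the etiolated cotyledon marker PORA was not measured. In whole seedlings, fewer cells of a type and less RNA per cell cannot be told apart.

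In WT, which chose the genes, the values are a description. Signal in darkness was 3.06 to 45.0 times that in blue light, with a median of 4.14. Signal with ABA was 3.07 to 250.1 times that in blue light, with a median of 4.93. In seedlings grown with ABA, 26 of 35 lay within 2-fold of their dark level, 7 were at least 2 times above it and 2 were at 0.5 of it or below. The rule set the same lower limit on both levels against blue light, so this closeness is in part set by the choice. Light lowered 554 probe sets in WT by the same limits, so these genes were 6.32% of them, and they were 9.7% of the 361 that ABA raised.

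**Figure D1:**
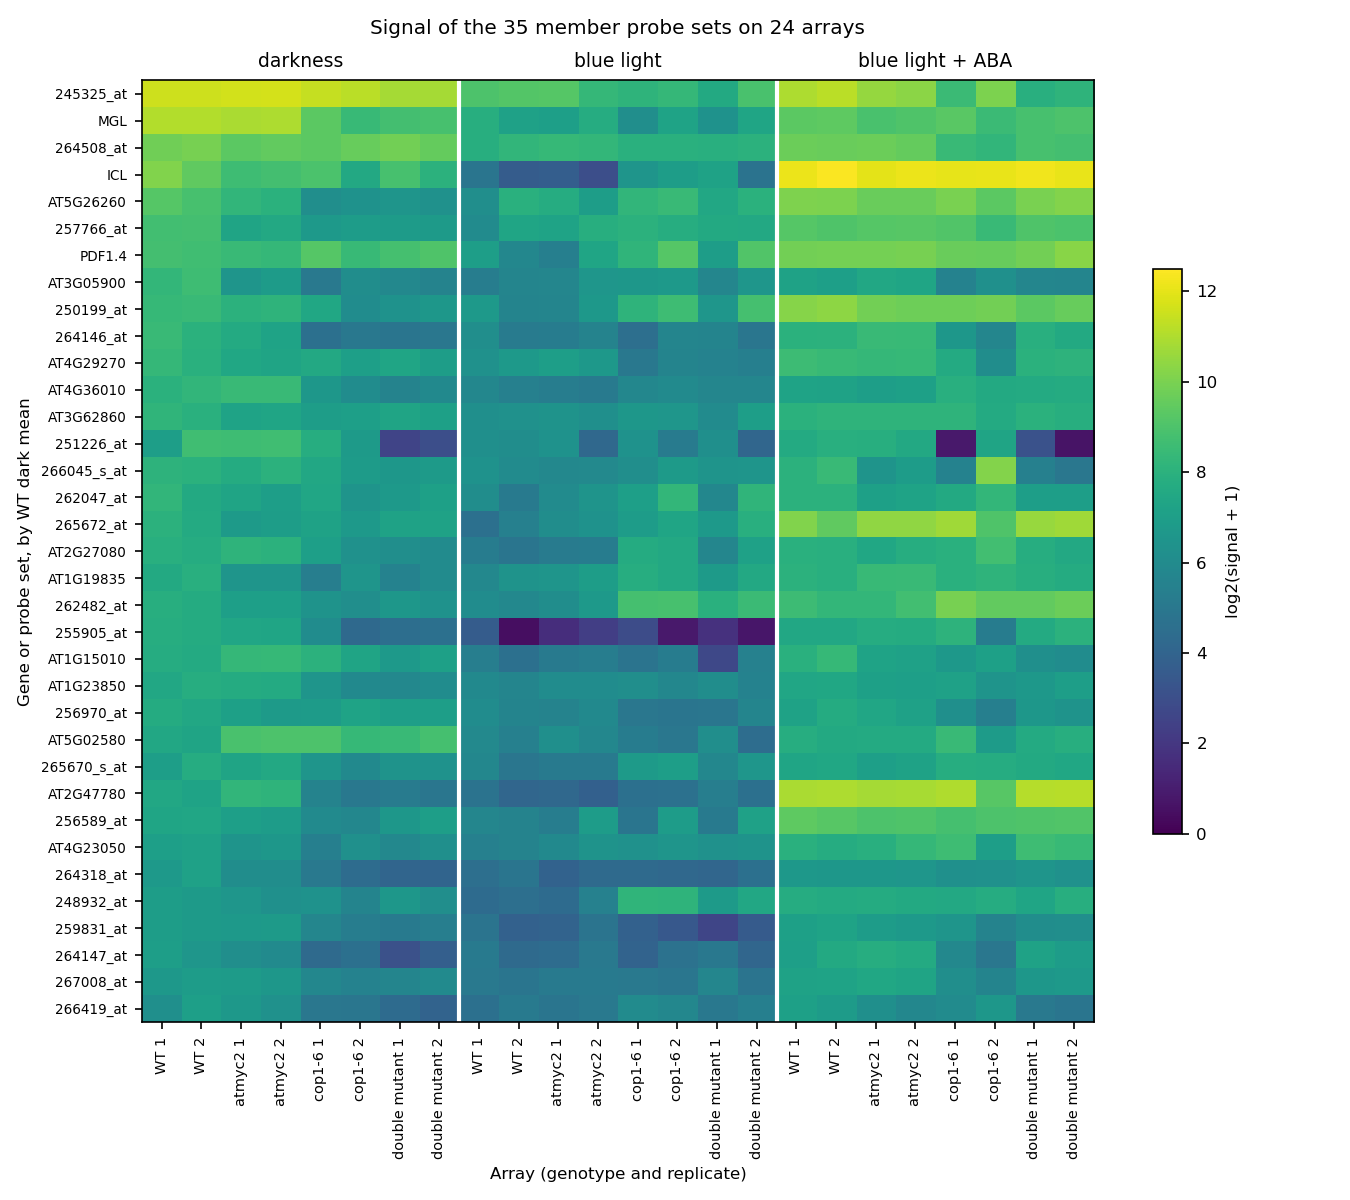
Signal of the 35 probe sets on all 24 arrays as log2(signal + 1), with rows sorted by the WT mean in darkness and columns grouped by condition, then genotype and replicate. Blue light columns have lower signal than darkness and ABA columns in WT (35 of 35 rows) and, for most rows, in atmyc2, while in the lines carrying cop1-6 the dark and blue light blocks look alike for many rows.

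Near the limits, membership rested on small differences. The lowest dark means inside were 103.45 for 266419_at and 109.65 for 267008_at, and the highest outside were 88.0 for AT5G19110 and 84.05 for AT1G74250. For the ratio of darkness to blue light, AT4G23050 (3.06) and AT4G29270 (3.07) were just inside and HMT-1 (2.99) and AT2G01100 (2.97) just outside. For the ratio of ABA to blue light, 251226_at (3.07) and 256970_at (3.07) were just inside and the mitochondrial nad5 (2.98) and 250662_at (2.95) just outside. Without WT blue light replicate 2 the rule would have taken 62 probe sets, 29 of them among the 35.

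The rule used no values of the mutants' arrays, though it was chosen with earlier results of these data known. These arrays were tested with limma on log2(signal + 1) in 1 fit of 18 arrays and 16070 probe sets. All 35 genes passed the filter on dim signal. Benjamini-Hochberg adjusted p-values cover all probe sets of a comparison, with a threshold of 0.05. The share of all tested probe sets past that threshold is given beside each first count as the background. In each genotype the light comparison and the ABA comparison share the blue light arrays, so a high or low blue light value enters both with opposite sign.

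The rise with ABA was found in all 3 mutants. With ABA, 32 of the 35 genes were higher than in blue light in atmyc2 (background 11.3%), 20 in cop1-6 (background 5.6%) and 27 in the double mutant (background 9.77%). None of the 35 was lower in any of the 3. The median log2 change of the 35 was 1.99, 1.05 and 1.80, beside 0.03, -0.01 and -0.03 over all tested probe sets. Summed green tissue markers were lower with ABA than in blue light over the same arrays. They went from 8121.9 and 6780.6 to 6300.3 and 5968.6 in atmyc2, from 6435.1 and 6909.6 to 3604.0 and 5026.9 in cop1-6, and from 7824.7 and 7518.9 to 5216.9 and 4930.3 in the double mutant. The mean of LHCB4.2 was nearly level in atmyc2, at 1922.85 in blue light and 1891.1 with ABA. The ribosomal RNA control was higher on every ABA array, and the part of either in the result was not tested. In cop1-6 the count depended on the fit and changed when 1 array was left out. It was 1 when only the 4 arrays compared were fitted. Calls over all probe sets fell as well, to 4 higher of 14599 from 900 of 16070, so this drop is not particular to the 35.

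The fall in light was found in atmyc2 and was mixed in both lines carrying cop1-6. In atmyc2, 25 of the 35 were lower in blue light than in darkness (background 20.2%) and 0 were higher (background 35.2%), with a median log2 change of -1.60 beside 0.28 over all tested probe sets. In cop1-6, 10 were lower (background 23.2%) and 10 were higher (background 31%), with a median of -0.26 beside 0.14. With quantile normalization the cop1-6 split was 12 lower and 7 higher. In the double mutant, 11 were lower (background 19.1%) and 6 were higher (background 20.6%), with a median of -0.05 beside 0.03. Set against these backgrounds, the 10 and 10 of cop1-6 and the 6 higher of the double mutant are no result about the 35, while 31.4% of the 35 were lower in the double mutant. Over these groups the summed green tissue markers moved too. By gene, the means of RCA and PSAN were higher in blue light than in darkness in every line. That of LHCB4.2 was 1226.65 in darkness and 1167.2 in blue light in cop1-6, and higher in blue light in the other lines. The root list (EXPA7, EXPA18 and PYK10) summed to 4703.9 to 6911.4 in dark WT and atmyc2, 3027.3 to 3907.4 in dark lines carrying cop1-6 and 2782.0 to 3767.8 in blue light. Nearly all of each sum was PYK10, a beta-glucosidase of roots, with a mean of 6216.8 in dark WT beside 80.8 for EXPA18 and 16.2 for EXPA7. PYK10 fell in light in atmyc2 (-0.54, adjusted p = 0.00322 in limma). The mean of EXPA7 was higher in blue light than in darkness in WT, cop1-6 and the double mutant and lower in atmyc2. That of EXPA18 was higher in the double mutant and lower in the other lines. The part of either list in the result was not tested.

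**Figure D2:**
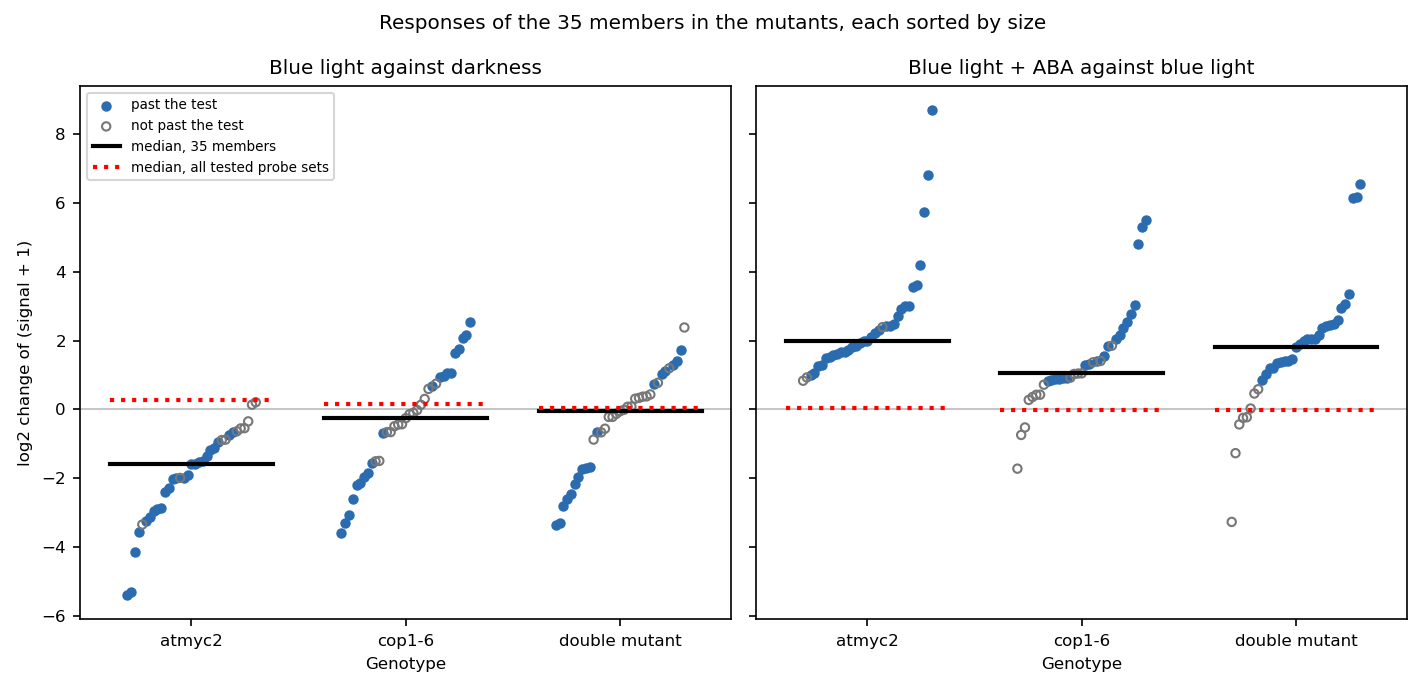
The log2 change of (signal + 1) of each of the 35 genes in each mutant, for blue light against darkness (left) and blue light with ABA against blue light (right), sorted by size. Filled points passed the test, solid lines are medians of the 35 and dotted lines medians of all tested probe sets. With ABA the medians are 1.99, 1.05 and 1.80, while in light they go from -1.60 in atmyc2 to -0.26 and -0.05.

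The single arrays were also compared without a model. In atmyc2, both dark arrays lay above both blue light arrays at 32 genes and below them at 0, while in cop1-6 they lay above at 17 and below at 11, and in the double mutant above at 12 and below at 10. Both ABA arrays lay above both blue light arrays at 35 genes in atmyc2, 30 in cop1-6 and 28 in the double mutant, and below them at 0, 2 and 2. The same separation was not counted over all probe sets, so these array counts have no background and are a description. The selection rule applied to each mutant's own means took 25 probe sets in atmyc2, 14 in cop1-6 and 16 in the double mutant. Of the 35 genes, 15 were among them in atmyc2 (42.9% of the 35 and 60% of that list), 5 in cop1-6 (14.3% and 35.7%) and 4 in the double mutant (11.4% and 25%).

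Among genes of reserve mobilisation, ICL (AT3G21720) had the widest range. It encodes isocitrate lyase, the enzyme that opens the glyoxylate cycle and lets oil carbon become sugar. In WT its signals were 1107.1 and 691.9 in darkness, 28.2 and 11.4 in blue light, and 4521.9 and 5483.8 with ABA. In atmyc2 they were 394.9 and 434.6 in darkness, 12.3 and 7.1 in blue light, and 4094.3 and 4524.7 with ABA. Its blue light mean was thus lowest in atmyc2, where 1 of the arrays overlapped those of WT, and its ABA signal was close to that of WT. In cop1-6 they were 491.5 and 185.1 in darkness, 91.4 and 123.0 in blue light, and 4131.5 and 4315.9 with ABA. The double mutant gave 457.4 and 260.0 in darkness, 144.1 and 26.5 in blue light, and 4875.6 and 4277.5 with ABA. All 8 ABA arrays of ICL stood above every dark and blue light array.

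Blue light lowered ICL by a log2 change of -5.32 ± 0.63 (SE, adjusted p = 1.74e-05) in atmyc2 and -2.45 ± 0.63 (adjusted p = 0.00857) in the double mutant. The change of -1.50 ± 0.63 in cop1-6 did not pass (adjusted p = 0.061). The call in the double mutant was lost without blue light replicate 2 or dark replicate 1 (highest adjusted p without 1 array, 0.0652). With ABA, ICL rose by 8.70 ± 0.63 in atmyc2 (adjusted p = 8.76e-06), 5.30 ± 0.63 in cop1-6 (adjusted p = 0.000357) and 6.18 ± 0.63 in the double mutant (adjusted p = 6.46e-05). The blue light mean of 9.7 in atmyc2 is below the level of 19.1 that set the filter on dim signal, and with that level as pseudocount the ABA rise in atmyc2 was 7.24. In the double mutant the blue light level of ICL was 2.61 ± 0.63 above that of atmyc2 (adjusted p = 0.0242), a call that was lost with 1 array left out (highest adjusted p 0.125).

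AT2G47780 encodes a protein of the rubber elongation factor family found on lipid droplets. Its WT signals were 181.5 and 151.0 in darkness, 26.3 and 16.3 in blue light, and 1942.2 and 1966.8 with ABA, the largest excess of ABA over darkness among the 35 at 11.8 times. The atmyc2 arrays gave 296.5 and 280.0 in darkness, 17.6 and 13.1 in blue light, and 1825.3 and 1839.9 with ABA. In cop1-6 the dark values were only 46.9 and 31.3, beside 23.6 and 24.1 in blue light, while ABA gave 2071.4 and 614.7. Dark and blue light arrays overlapped in the double mutant, at 35.2 and 28.8 against 39.8 and 23.5, and its ABA arrays read 2201.1 and 2260.0. The log2 change in light was -4.16 ± 0.41 (SE) in atmyc2 (adjusted p = 1.92e-06), -0.66 ± 0.41 in cop1-6 and -0.05 ± 0.41 in the double mutant, and only the first passed. The ABA rise passed in all 3 mutants, at 6.82, 5.51 and 6.14 with the same SE of 0.41. AT2G47780 thus kept its ABA rise in lines where its dark level was low: the double mutant differed from atmyc2 in darkness by -3.14 ± 0.41 (log2, adjusted p = 4.87e-05).

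MGL (AT1G64660) encodes methionine gamma-lyase, which degrades methionine. It went the other way from ICL, with an ABA level in WT of 0.315 of its dark level, the lowest among the 35. WT signals were 2100.8 and 2139.1 in darkness, 224.6 and 139.1 in blue light, and 659.7 and 676.7 with ABA. In atmyc2 they were 1956.6 and 2018.4, then 130.9 and 211.8, then 473.8 and 529.3. In cop1-6 darkness gave 661.1 and 348.0, blue light 70.9 and 152.7, and ABA 619.6 and 360.1. The double mutant arrays read 439.0 and 467.2 in darkness, 82.7 and 161.4 in blue light, and 461.9 and 508.4 with ABA. ABA and dark arrays of MGL overlapped in both cop1-6 lines, while in WT and atmyc2 every dark array lay far above every ABA array. MGL fell in light in all 3 mutants, by a log2 change of -3.57 ± 0.41 (SE), -2.19 ± 0.41 and -1.96 ± 0.41 in atmyc2, cop1-6 and the double mutant (adjusted p at most 0.00221). It rose with ABA in all 3 as well, by 1.58 ± 0.41, 2.17 ± 0.41 and 2.06 ± 0.41 (adjusted p 0.0157, 0.00453 and 0.00339). The rise in atmyc2 was lost with 1 array left out (highest adjusted p 0.143). In darkness the double mutant minus atmyc2 was -2.13 ± 0.41 (adjusted p = 0.000992).

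**Figure D3:**
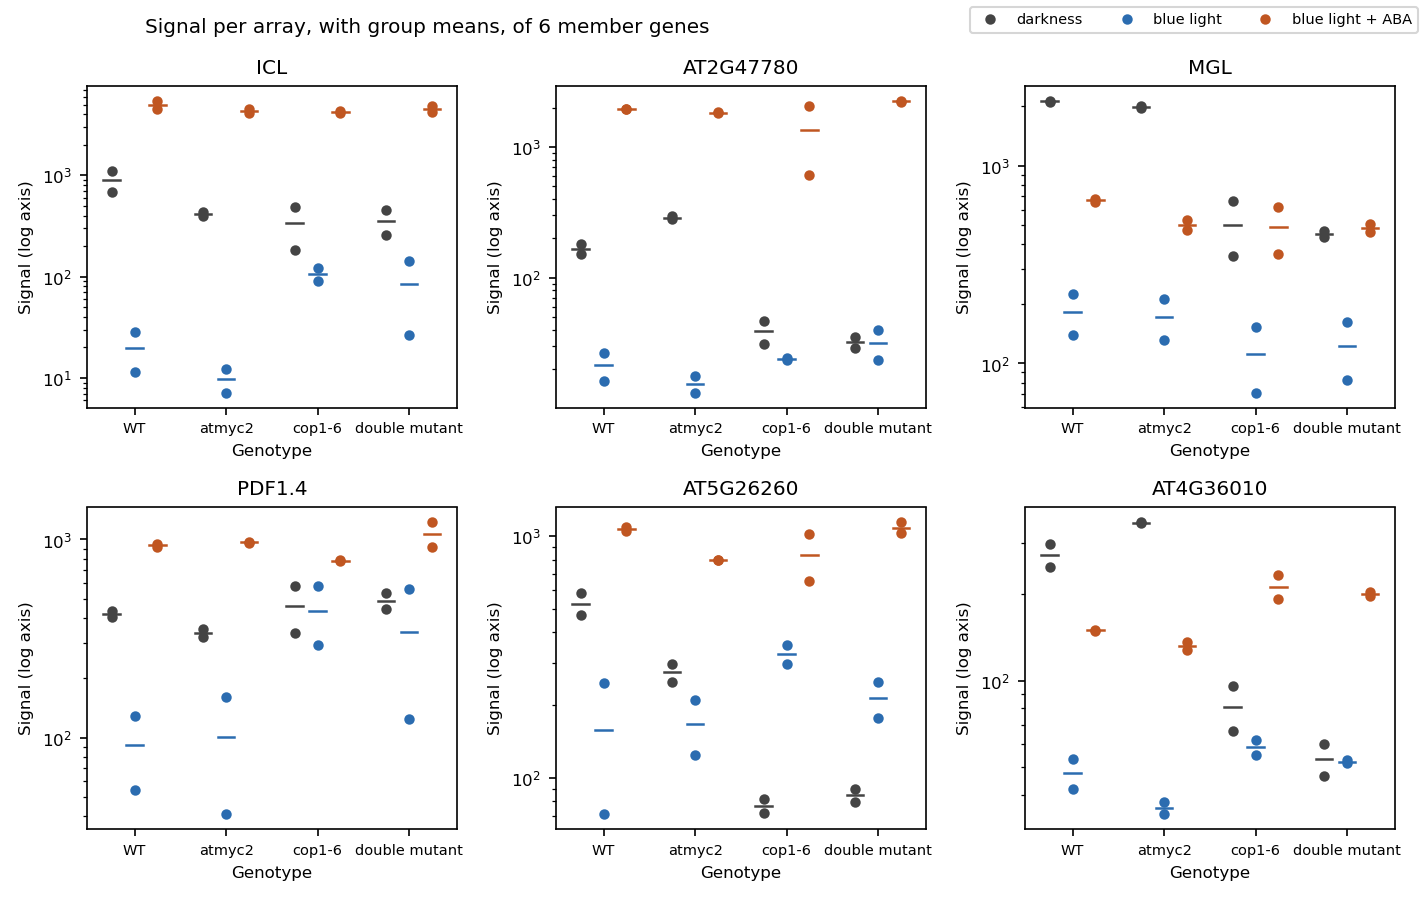
Signal on each array (points, log axis) and group mean (short lines) of 6 genes in 4 genotypes, coloured by condition. ICL reaches 4094.3 or more on every ABA array, MGL stands highest in darkness in WT and atmyc2, and the dark points of AT2G47780, AT5G26260 and AT4G36010 drop in both lines carrying cop1-6.

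A second set of genes is known or named for stress and defence proteins. PDF1.4 (AT1G19610) encodes a small protein of the plant defensin family. In WT it gave 437.9 and 406.2 in darkness, 128.7 and 54.5 in blue light, and 918.0 and 949.9 with ABA. The atmyc2 values were 352.0 and 321.3 in darkness, 40.9 and 159.6 in blue light, and 961.4 and 970.3 with ABA. In cop1-6 the dark arrays (580.4 and 337.5) and blue light arrays (293.6 and 579.6) overlapped, and ABA arrays read 785.9 and 778.5. They overlapped in the double mutant as well, at 443.7 and 534.1 against 124.4 and 559.5, below 914.5 and 1223.5 with ABA. PDF1.4 fell in light in atmyc2 alone of the tested lines, by a log2 change of -2.04 ± 0.66 (SE, adjusted p = 0.0205). It rose with ABA by 3.56 ± 0.66 in atmyc2 (adjusted p = 0.00309) and 2.00 ± 0.66 in the double mutant (adjusted p = 0.0484). The value of 0.92 ± 0.66 in cop1-6 did not pass. The atmyc2 fall and the double mutant rise were each lost with 1 array left out (highest adjusted p 0.201 and 0.352).

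AT4G36010 encodes a thaumatin-like protein, of a family known from defence. In darkness it read 248.8 and 297.8 in WT and 355.6 and 351.9 in atmyc2, but 95.8 and 66.6 in cop1-6 and 46.4 and 60.1 in the double mutant. In blue light all genotypes were low, from 34.2 to 62.3. With ABA, WT and atmyc2 gave 150.4, 148.7, 127.5 and 136.1, and the lines carrying cop1-6 gave 233.0, 191.5, 196.0 and 202.5. In atmyc2 the ABA level stayed under the dark level (log2 difference -1.42 ± 0.19, SE, adjusted p = 1.3e-05), and in both cop1-6 lines it stood above it (1.39 ± 0.19 and 1.90 ± 0.19). The ABA rise of AT4G36010 was even across the mutants, at 1.84, 1.84 and 1.91 with an SE of 0.19 in atmyc2, cop1-6 and the double mutant. Its fall in light was -3.26 ± 0.19 in atmyc2 (adjusted p = 3.55e-09), beside -0.44 ± 0.19 and -0.02 ± 0.19, which did not pass.

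AT2G27080 belongs to a family named for late embryogenesis abundant and hydroxyproline-rich proteins. Its signals in darkness were 232.1 and 215.8 in WT, 276.3 and 258.1 in atmyc2, 130.0 and 78.8 in cop1-6, and 71.1 and 63.3 in the double mutant. In blue light they were 37.5 and 28.0, 35.3 and 36.4, 205.0 and 187.6, and 52.6 and 143.3 in the same order. With ABA they were 245.5 and 231.8, 172.9 and 223.6, 245.9 and 423.9, and 217.9 and 182.9. Light thus went with low signal in WT and atmyc2 and with high signal in cop1-6. The log2 change in light was -2.86 ± 0.37 (SE, adjusted p = 1.96e-05) in atmyc2 and 0.95 ± 0.37 (adjusted p = 0.0453) in cop1-6. The latter was lost without 1 array (highest adjusted p 0.288). The ABA rise passed in atmyc2 (2.42 ± 0.37) and the double mutant (1.19 ± 0.37, lost without 1 array) and not in cop1-6 (0.72 ± 0.37).

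AT5G26260 encodes a TRAF-like family protein and turned round in light. In atmyc2 it read 296.8 and 250.1 in darkness, 210.4 and 124.5 in blue light, and 799.9 and 796.2 with ABA. In cop1-6 it read 71.5 and 82.3 in darkness, 296.6 and 356.0 in blue light, and 1020.1 and 651.9 with ABA. The double mutant gave 90.5 and 79.9 in darkness, 177.9 and 249.9 in blue light, and 1027.9 and 1142.5 with ABA. Its WT blue light arrays were unlike, at 70.7 and 246.4, and both lay below the 581.2 and 471.7 of darkness and the 1093.8 and 1049.2 of ABA. Dark arrays of AT5G26260 were the highest of the unsupplemented arrays in atmyc2 and the lowest in both cop1-6 lines. The log2 change in light was -0.75 ± 0.25 (SE, adjusted p = 0.0205) in atmyc2, 2.07 ± 0.25 (adjusted p = 1.17e-05) in cop1-6 and 1.3 ± 0.25 (adjusted p = 0.000971) in the double mutant. The atmyc2 call was lost with 1 array left out (highest adjusted p 0.282). With ABA it rose in all 3, by 2.29, 1.32 and 2.36 with an SE of 0.25.

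Probe set 262482_at and probe set 266419_at shared this pattern of falling in atmyc2 and rising in cop1-6 and the double mutant. With 1 array left out, the atmyc2 fall of 262482_at was lost (highest adjusted p 0.273), as was the double mutant rise of 266419_at (highest adjusted p 0.0651). The first read 133.0 and 131.7 in darkness and 67.8 and 102.7 in blue light in atmyc2, against 83.5 and 71.1 in darkness and 449.6 and 464.8 in blue light in cop1-6. Its ABA arrays in cop1-6 (975.1 and 732.1) and the double mutant (726.5 and 838.2) were the highest of the 4 genotypes. With ABA the double mutant stood 1.11 ± 0.23 (log2, SE) above atmyc2 at 262482_at (adjusted p = 0.0172), the only gene of the 35 called higher there. That call was lost with 1 array left out (highest adjusted p 0.277).

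Several further named genes carry filament or signalling names. AT1G19835 encodes a filament-like protein. In atmyc2 its dark values of 91.2 and 91.4 met blue light values of 89.3 and 124.3, and ABA gave 342.4 and 354.7. In cop1-6 darkness gave 39.6 and 89.6, blue light 219.8 and 187.9, and ABA 246.7 and 275.8. Blue light was thus above darkness here, by a log2 change of 1.75 ± 0.31 (SE, adjusted p = 0.000338) in cop1-6 and 1.41 ± 0.31 (adjusted p = 0.00278) in the double mutant. The ABA rise passed in atmyc2 (1.72 ± 0.31, adjusted p = 0.00178), and the values of 0.36 and 0.58 in cop1-6 and the double mutant did not pass.

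AT3G05900, named as neurofilament-related, had a ratio of ABA to darkness of 0.402 in WT, the lowest after MGL. WT gave 306.8 and 385.7 in darkness, 38.6 and 49.8 in blue light, and 144.4 and 134.0 with ABA. Dark levels were lower in every mutant, at 90.8 and 116.0 in atmyc2, 32.5 and 69.8 in cop1-6, and 56.7 and 47.1 in the double mutant. With ABA, atmyc2 read 179.0 and 160.4, and both cop1-6 lines read 45.4 to 77.0. The ABA rise of AT3G05900 passed in atmyc2 alone (1.27 ± 0.37, SE, adjusted p = 0.0252, lost without 1 array). With ABA the double mutant minus atmyc2 was -1.70 ± 0.37 (adjusted p = 0.0217, highest 0.228 without 1 array).

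AT4G23050 encodes a protein kinase with a PAS domain, and AT4G29270 an acid phosphatase of the HAD superfamily. AT4G23050 did not pass in light in any mutant, with log2 changes of -0.35, 0.59 and 0.33 (SE 0.41), and rose with ABA in all 3, by 1.93, 1.39 and 2.15. Its ABA arrays were 234.5 and 324.0 in atmyc2, 392.8 and 127.7 in cop1-6, and 391.5 and 343.4 in the double mutant. The cop1-6 rise rested on array 1, with an adjusted p of 0.04 and a highest adjusted p of 0.339 without 1 array. AT4G29270 fell in light in cop1-6 (log2 change -1.96 ± 0.36, SE, adjusted p = 0.00047) and in the double mutant (-1.70 ± 0.36, adjusted p = 0.00219), and the value of -0.55 ± 0.36 in atmyc2 did not pass. Blue light signals were 125.6 and 100.4 in atmyc2 but 31.5 and 48.6 in cop1-6 and 45.0 and 41.2 in the double mutant.

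AT3G62860 encodes a protein of the alpha/beta hydrolase superfamily. Its ABA level met its dark level in WT at a ratio of 1.00, with 288.6 and 247.7 in darkness, 73.8 and 79.7 in blue light, and 255.7 and 282.2 with ABA. The ABA rise passed in every mutant, at 1.81, 1.29 and 1.39 (log2, SE 0.25). In light it fell in atmyc2 (-0.94 ± 0.25, adjusted p = 0.00468) and, with a call lost without 1 array, in the double mutant (-0.67 ± 0.25, adjusted p = 0.0416). AT1G23850 fell in light in atmyc2 (-1.60 ± 0.26, adjusted p = 0.000125) and not past the test in the other lines (-0.26 and -0.13). Its ABA rises were the smallest of the named genes that passed in all 3 mutants, at 0.99, 0.84 and 1.02 with an SE of 0.26, and each was lost with 1 array left out.

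Beside MGL, 7 of the 35 fell in light in all 3 mutants: AT1G15010, AT5G02580, 245325_at, 255905_at, 256970_at, 259831_at and 264508_at. All 7 were named for this count after their values were seen. At 255905_at the falls in cop1-6 and the double mutant were each lost with 1 array left out. Its blue light means of 3.05, 3.65 and 1.55 in atmyc2, cop1-6 and the double mutant were under the dim level of 19.1. The share of all tested probe sets that fell in all 3 was not counted. Falls in the single comparisons of atmyc2, cop1-6 and the double mutant had backgrounds of 20.2%, 23.2% and 19.1%. AT5G02580 fell by a log2 change of -2.95, -3.59 and -3.35 (SE 0.51) in atmyc2, cop1-6 and the double mutant, and AT1G15010 by -3.14, -2.62 and -2.81 (SE 0.62). In darkness AT5G02580 was 480.6 and 514.9 in atmyc2, 510.2 and 334.6 in cop1-6, and 359.4 and 450.4 in the double mutant, beside 178.7 and 159.1 in WT. It was high in every dark mutant group and between 20.8 and 74.0 on every mutant blue light array. Probe set 245325_at had the highest dark mean of the 35, at 2987.4 in WT. Its ABA arrays read 1474.5 and 1298.9 in atmyc2, 362.3 and 1037.5 in cop1-6, and 232.8 and 281.4 in the double mutant. At 245325_at ABA was called above blue light in atmyc2 (1.68 ± 0.45, SE, highest adjusted p 0.14 without 1 array) and gave -0.23 ± 0.45 in the double mutant, whose difference from atmyc2 with ABA was -2.43 ± 0.45 (adjusted p = 0.0126, highest 0.165 without 1 array).

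Probe sets without a gene name held some of the strongest ABA levels, and those described next were picked after their values were seen. At 265672_at the WT arrays read 259.6 and 199.3 in darkness, 23.4 and 42.5 in blue light, and 1135.2 and 691.2 with ABA. In atmyc2 and the double mutant ABA gave 1369.2, 1389.7, 1541.1 and 1673.1, and in cop1-6 it gave 1706.9 and 539.2. Every ABA array of 265672_at stood above every dark and blue light array of its genotype, while dark and blue light did not differ past the test in any mutant (log2 changes -0.64, 0.13 and 0.07, SE 0.44). Probe set 256589_at was alike in this, with mutant ABA arrays from 453.9 to 544.4 against 55.0 to 132.8 in darkness. Its mutant blue light replicates were far apart in each line, such as 34.0 and 140.2 in the double mutant. The 256589_at ABA rises of 2.92, 3.05 and 2.94 (log2, SE 0.68) each lost their call with 1 array left out.

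Another group had dark signal in WT and atmyc2 and little in both lines carrying cop1-6. At 264146_at dark arrays read 353.0 and 254.0 in WT, 198.8 and 148.8 in atmyc2, 23.5 and 31.6 in cop1-6, and 28.2 and 29.8 in the double mutant. With ABA they read 247.9 and 261.8, 349.5 and 338.1, 96.5 and 51.6, and 233.4 and 188.9 in the same order. The low dark level therefore stood beside a high ABA level in the double mutant, where the ABA rise was 2.44 ± 0.36 (log2, SE, adjusted p = 0.000383), while the rise of 1.04 ± 0.36 in cop1-6 did not pass. Probe set 264318_at showed the same in darkness, at 68.1 and 68.5 in atmyc2 against 16.1 and 15.3 in the double mutant. Its ABA arrays were close in all lines, from 75.4 to 99.2, and it rose with ABA by 2.47, 2.04 and 2.05 (SE 0.25). Probe set 259831_at fell in light in every mutant, by -2.39, -1.85 and -2.16, and rose with ABA by 2.41, 2.37 and 3.06 (SE 0.36). These calls held without any single array. Its dark means were lower in the lines carrying cop1-6 too, at 45.25 in cop1-6 and 37.6 in the double mutant. They were 117.5 in WT and 111.05 in atmyc2. Its blue light means of 11.85 in cop1-6 and 8.05 in the double mutant were under the dim level of 19.1, which limits the size of these changes.

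In the 35 as a whole, the ABA rise passed in all 3 mutants at 20 genes, in atmyc2 and the double mutant at 7, and in atmyc2 alone at 5. How many of all tested probe sets share each of these patterns was not counted, so this split is a description. The 3 genes past the test in no mutant were 251226_at, 262047_at and 266045_s_at. Probe set 266045_s_at, which matches several genes, gave 46.2 and 1168.7 on the cop1-6 ABA arrays. Probe set 251226_at read 391.9 and 401.6 in dark atmyc2 but 5.0 and 7.1 in the dark double mutant, a log2 difference of -5.83 ± 1.60 (SE, adjusted p = 0.0112, highest 0.0551 without 1 array).

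**Figure D4:**
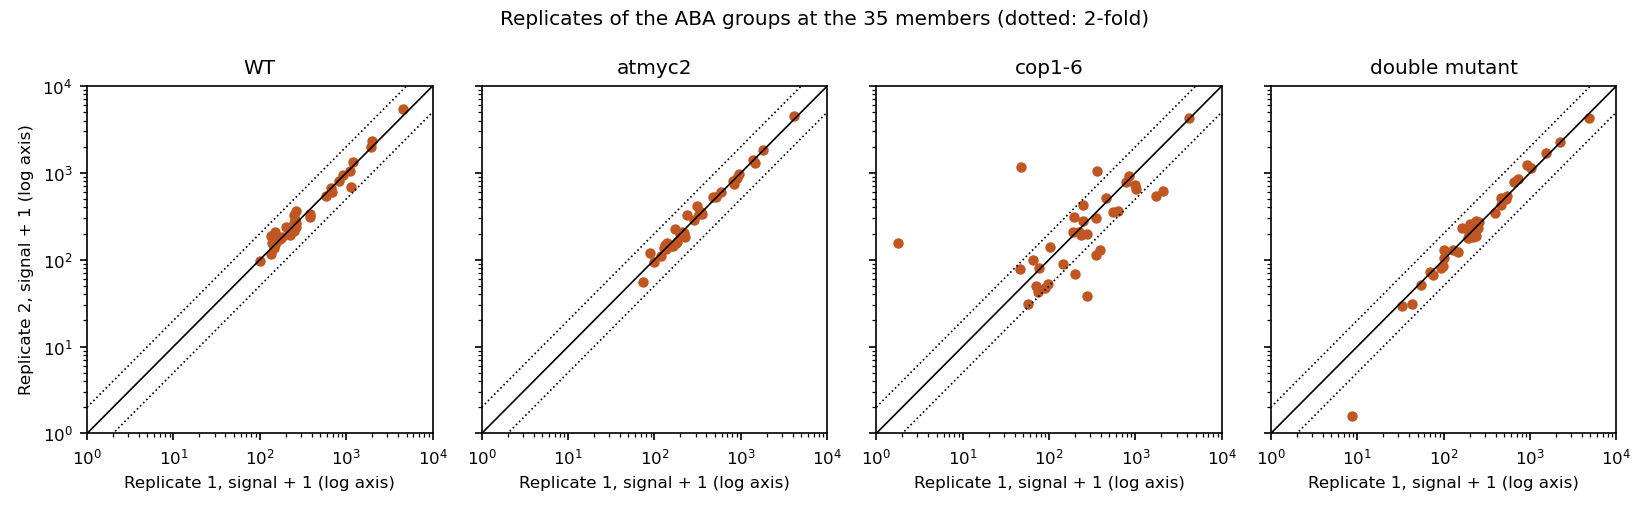
Signal plus 1 of the 35 probe sets on replicate 2 against replicate 1 of the ABA groups, on log axes, with the solid line at equal signal and dotted lines at 2-fold. In cop1-6, 9 of 35 points lie outside the dotted lines (6 higher in replicate 1 and 3 in replicate 2), against 0, 0 and 1 in WT, atmyc2 and the double mutant.

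Setting ABA against darkness compares the 2 states that were high in WT. In atmyc2, 15 of the 35 (42.9%) were higher with ABA, near the background of 42.2% and so no result about the 35, and 4 were lower (background 24.5%). In cop1-6 it was 19 higher (background 33.3%) and 3 lower (background 25.3%), and in the double mutant 22 higher (background 26.6%) and 2 lower (background 26%). With only the arrays compared, the atmyc2 count was 20 higher and 10 lower, beside 7384 higher and 4581 lower of all 15183 probe sets tested. The median log2 difference was 0.63, 1.34 and 1.13, beside 0.38, 0.16 and 0.02 over all tested probe sets. The levels themselves were as follows. In darkness the median signal was 223.95 in WT and 171.45 in atmyc2, and 81.2 and 85.2 in cop1-6 and the double mutant. With ABA it was 254.85, 209.15, 236.05 and 211.15 in the same order, and in blue light 50.45, 64.4, 92.3 and 81.85. ICL was above its dark level with ABA in all 3 mutants, by 3.37, 3.80 and 3.72 (SE 0.63).

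The double mutant was then compared with each single mutant. In darkness, 18 of the 35 were lower in the double mutant than in atmyc2 (background 16%) and 0 were higher (background 29.4%), with a median log2 difference of -0.98 beside 0.21. Among the named genes these were AT2G47780 (-3.14), AT4G36010 (-2.72), MGL (-2.13), AT2G27080 (-1.98), AT1G23850 (-1.73), AT5G26260 (-1.67) and AT3G05900 (-0.98). The call of AT3G05900 was lost without any 1 of the arrays compared. Poly-A control signals split these 2 dark groups as well. In blue light 4 were higher (background 4.07%) and 2 lower (background 4.84%), and 5 and 1 with quantile normalization. The 4 were ICL, 262482_at, 248932_at and 265670_s_at, and the 2 were AT4G29270 and 259831_at. The count of 6 fell without either atmyc2 blue light replicate. It was 3 with only the arrays compared, beside 234 higher and 281 lower of all 14754 probe sets tested. With ABA 1 was higher (background 0.896%) and 4 lower (background 2.86%). The count of 5 fell when an array of either ABA group was left out. It was 19 with only the arrays compared, where calls over all 14525 probe sets tested rose too, to 1694 higher and 2354 lower.

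**Figure D5:**
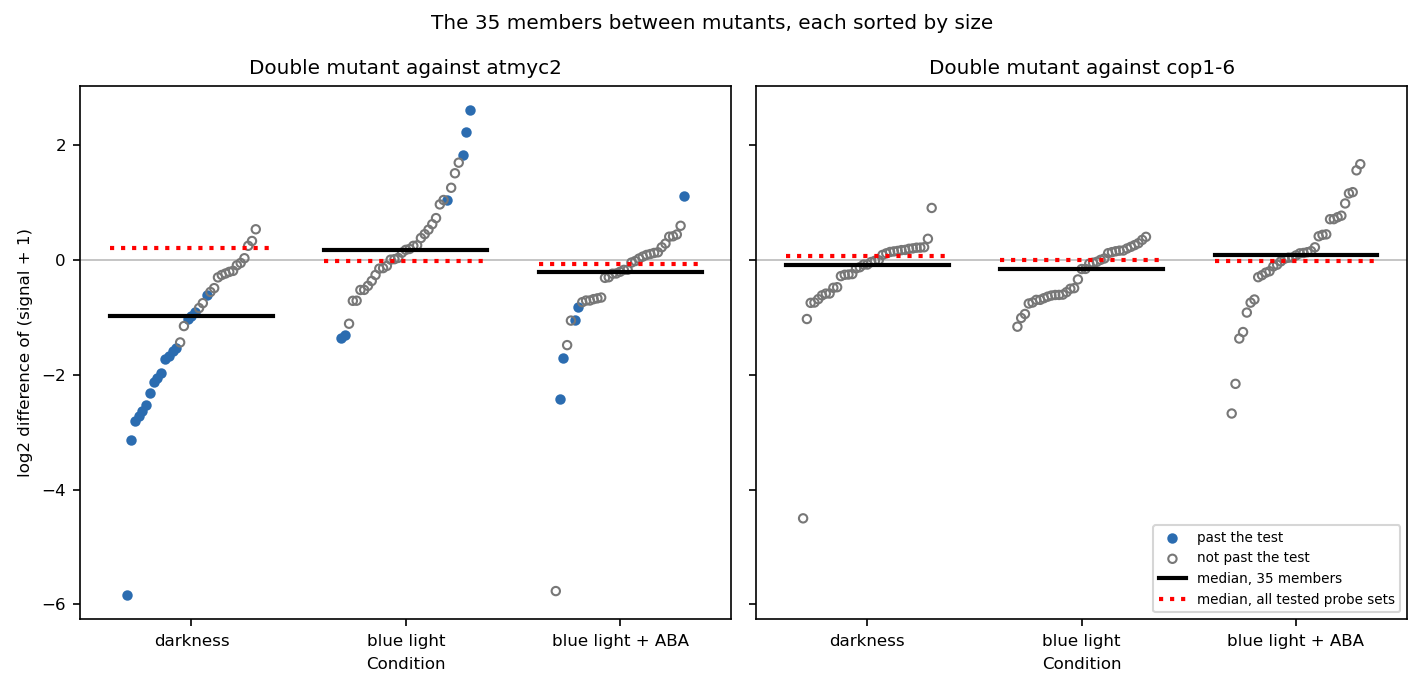
The log2 difference of (signal + 1) of each of the 35 genes between the double mutant and atmyc2 (left) or cop1-6 (right) in each condition, sorted by size. Filled points passed the test, solid lines are medians of the 35 and dotted lines medians of all tested probe sets. Against atmyc2 in darkness 18 points passed, all below 0, and against cop1-6 none passed in any condition.

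Between the double mutant and cop1-6, 0 of the 35 passed in darkness (background 1.76% higher and 0.38% lower), in blue light (background 0% and 0%) or with ABA (background 0.0124% and 0.0249%) in limma. At an unadjusted p under 0.05 there were 5 lower in darkness, 6 lower in blue light, and 7 higher and 3 lower with ABA. Without cop1-6 ABA replicate 1 some of the 35 passed with ABA, and calls over all tested probe sets rose as well. These comparisons do not show that the lines act alike: for AT4G36010 the SE of a difference was 0.19 on the log2 scale, and for ICL it was 0.63.

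Differences of response were tested directly. The light response of the double mutant minus that of atmyc2 was above 0 at 14 of the 35 (background 8.2%) and below 0 at 1, 264508_at (background 19.2%), with a median of 1.46 beside -0.23 over all tested probe sets. The largest among named genes were AT2G47780 (4.10 ± 0.58, SE, adjusted p = 0.000285), AT4G36010 (3.25 ± 0.27, adjusted p = 3.01e-06), AT2G27080 (3.23 ± 0.53, adjusted p = 0.000698) and ICL (2.87 ± 0.89, adjusted p = 0.0316). The ICL difference was lost with 1 array left out (highest adjusted p 0.103), and so was that of 264508_at (highest adjusted p 0.181). This comparison shares its dark arrays with the one between double mutant and atmyc2 in darkness. The ABA response of the double mutant minus that of atmyc2 passed at 0 genes (background 0.0498% and 0.131%) in limma, with 10 below 0 at an unadjusted p under 0.05. Between the double mutant and cop1-6, 0 genes passed for the light response (background 0.0187% and 0.0436%) and 0 for the ABA response (background 0% and 0%). At an unadjusted p under 0.05 there were 2 above and 4 below for light and 3 above for ABA. Without cop1-6 ABA replicate 1 some genes passed for the ABA response, and calls over all tested probe sets rose there too. AT5G26260 had the smallest unadjusted p of 0.0112, with a difference of 1.03 and an adjusted p of 0.909.

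The 519 probe sets that light lowered and ABA did not raise in WT give a comparison for the light response. Of these, 489 (94.2%) fell in atmyc2, 390 (75.1%) in cop1-6 and 322 (62%) in the double mutant, with medians of -2.34, -1.55 and -1.11. For the 35 the shares were 71.4%, 28.6% and 31.4%. The 326 that ABA raised and light did not lower rose with ABA at 290 (89%), 139 (42.6%) and 212 (65%) in the 3 mutants, beside 91.4%, 57.1% and 77.1% of the 35. Medians of the 326 were 2.01, 0.90 and 1.31. The difference between these groups of genes was not tested, since genes are not replicates.

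Other genes of the pathways were followed through lists chosen by function. Of 9 listed genes of the glyoxylate cycle and gluconeogenesis, ICL was the only measured gene. Storage oil breakdown had 2 of 12 tested. AIM1, an enzyme of beta-oxidation, rose in light in all 3 mutants (1.42, 1.50 and 0.72) and with ABA in atmyc2 (0.48), while SDP1, the lipase that starts oil breakdown, passed nowhere (-0.12, 0.48 and -0.37 in light, 0.40, 0.37 and 0.56 with ABA). In branched-chain amino acid and lysine breakdown, 9 of 14 were tested. None fell in light in any mutant, 2, 2 and 3 rose, and with ABA 2, 0 and 0 rose. LKR_SDH, which breaks down lysine, rose with ABA in atmyc2 (1.95). Beside MGL, the other list of amino acid genes had PPDK alone of 13, which rose with ABA in atmyc2 (0.89) and, where MGL fell, rose in light in atmyc2 (1.10) and cop1-6 (0.95).

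Dark-induced and sugar-starvation genes were measured at 4 of 23. ATL8 (-4.68, -4.13 and -3.54), KINB1 (-1.74, -2.22 and -1.89) and SBT5.2 (-2.89, -1.41 and -1.22) fell in light in all 3 mutants. None of the list rose with ABA in any mutant, and KINB1 fell with ABA in atmyc2 (-0.88) and the double mutant (-1.30). These 3 genes were among the 519 that light lowered and ABA did not raise in WT. Starch and sugar mobilisation had 3 of 15 tested. In light 0, 2 and 2 rose and 1, 0 and 0 fell, and with ABA 1, 0 and 0 rose and 1, 1 and 3 fell. The sucrose transporter SWEET11 fell with ABA in all 3 mutants (-1.06, -1.63 and -2.35). SWEET15, of the same family, rose in light in cop1-6 (3.61) and the double mutant (3.56) and fell with ABA in the double mutant (-2.59). AMY1, a secreted alpha-amylase, rose in light in cop1-6 (5.30) and the double mutant (4.50) and with ABA in atmyc2 (2.89), and fell with ABA in the double mutant (-1.30). In autophagy and vacuolar proteolysis (8 of 15 tested), 3, 2 and 1 fell in light and 1, 2 and 1 rose in the 3 mutants, and 1, 0 and 0 rose with ABA, while 1, 2 and 6 fell.

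Protective genes of the late embryogenesis abundant and cold-regulated kind had 6 of 21 tested and none among the 35. With ABA, 3, 5 and 5 of the 6 rose, led by LEA18 (8.36, 8.04 and 9.51) and LEA4-5 (7.01, 6.16 and 8.21), whose blue light means in atmyc2 were 2.25 and 3.8, under the dim level of 19.1. In light 4, 3 and 2 rose and none fell. The jasmonate list had 2 of 11 tested. In light 1, 0 and 1 rose and none fell, and with ABA 1, 0 and 1 rose and 1, 1 and 1 fell. The thionin THI2.1 rose with ABA in atmyc2 (5.85, adjusted p = 0.00242 in limma) and the double mutant (5.08, adjusted p = 0.0049), and its 2.40 in cop1-6 did not pass. The defensin PDF1.2 fell with ABA in all 3 mutants (-4.44, -2.65 and -2.71), whereas its relative PDF1.4 gave 3.56, 0.92 and 2.00. Among expansins and xyloglucan endotransglucosylases (5 of 16 tested), 3, 3 and 2 fell in light and 0, 1 and 1 rose, and 2, 1 and 1 rose with ABA while 2, 1 and 1 fell. Growth hormone genes were tested at 1 of 13 (IAA29, which fell in light in cop1-6 and the double mutant by -3.09 and -3.40), and photomorphogenesis regulators at 1 of 15 (HYH, which rose in light in all 3 by 5.51, 3.11 and 2.72). None of the 24 ABA signalling genes and none of the 6 raffinose and proline genes listed was measured under a single gene name.

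OLEO3, the only seed and oil body gene measured, encodes an oleosin of the oil body surface. It read 28.5 and 23.7 in WT blue light and 65.9 and 58.1 with ABA, and its ABA arrays gave 193.4 and 16.3 in cop1-6 and 145.9 and 126.8 in the double mutant. Its ABA rise passed in cop1-6 (3.07) and the double mutant (3.05), and the value of 2.26 in atmyc2 did not pass. Its part in the rise of the 35 was not tested.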

How the data were processed

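Each deposited value was a signal intensity per probe set and array, computed by the authors with GCOS 1.4 per the submitters' processing notes. RNA was extracted with Trizol and labelled with biotin per the labels' protocols. The intensities were used as log2(signal + 1), without further scaling. The precision is limited by 2 arrays per group.

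R 4.3.3 with limma 3.58.1 fitted 9 groups of 18 mutant arrays (lmFit, then eBayes with trend and robust) for probe sets with a mean above 19.1 (40th percentile over the table) in at least 1 of these groups. WT arrays stayed out because they chose the genes, and values involving WT have no test. There were 19 comparisons, adjusted within each by the Benjamini-Hochberg method. Tested on simulated data of 15771 genes for ABA against blue light in atmyc2, the fit recovered 53% of genes changed by a log2 of 1 and 87% of those changed by 2, with 6 false calls. The dim filter of the simulation took wrong arrays, WT arrays among them, so its genes differ from the 16070 probe sets fitted. Changed genes were drawn only from those with a mean above the dim level, so the rates do not cover dim genes.

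Names came from the supplied platform and gene tables (TAIR10.1, names only): 13513 probe sets had 1 gene, 503 several and 8794 none. Named were members with 1 gene that were on a list, had a symbol and high dark signal, had extreme ratios of ABA to darkness, moved most against WT or differed most in response, or lay nearest a limit of the rule. AT1G15010, AT5G02580 and genes outside the 35 shown from the lists, as well as probe sets given by identifier, were named after their values were seen, apart from those near a limit. The members and all lists were chosen with earlier results of these data known. Alternatives covered pseudocount, filter, normalization, moderation, replicate block, arrays in the fit, arrays left out and the limits of the rule. Promoter sequences were not analysed here.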

Additional observations from a re-analysis of the deposited data

Results flagged for a closer look

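The light response (log2 change, blue light minus darkness) of 15 of the 35 genes differed between the double mutant and atmyc2 by the direct test of that difference. At 14 the difference was above 0, meaning a smaller fall or a rise in the double mutant. Among genes with a name it was 4.10 for AT2G47780, 3.25 for AT4G36010, 3.23 for AT2G27080, 2.87 for ICL (lost without 1 array), 2.05 for AT5G26260 and 1.46 for AT1G23850.

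Among probe sets given by identifier it was 3.10 for 250199_at (lost without 1 array), 2.57 for 266419_at, 2.47 for 264147_at, 2.39 for 262482_at, 2.38 for 264146_at, 2.30 for 264318_at, 2.28 for 248932_at and 2.07 for 265670_s_at. At 264508_at it was -0.61, a larger fall in the double mutant than in atmyc2, and the call was lost in 6 of the fits without 1 array (highest adjusted p 0.181). Dark arrays of the 2 genotypes also differed in their poly-A control signals, so this difference and array processing cannot be told apart.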

How the results depend on the processing

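Of 250 called values of single genes, 163 passed in every alternative run, and none changed direction. With ABA in cop1-6 the count of 20 became 1 with only the arrays compared and ran from 12 to 21 without an array. The ABA against darkness count in atmyc2 (19) became 30 with only the arrays compared. Between double mutant and cop1-6 the counts of 0 became 1 in darkness with only the arrays compared and ranged from 0 to 2 without an array, from 0 to 2 in blue light without an array, and with ABA 1 at a pseudocount of the 40th percentile and from 0 to 11 without an array. Between double mutant and atmyc2 the blue light count (6) became 3 with only the arrays compared and ran from 2 to 7 without an array, and the ABA count (5) became 19 and ran from 0 to 2. The 0 differences of ABA response ranged from 0 to 4 without an array against cop1-6. Against atmyc2 they became 1 at that pseudocount, with quantile normalization or with all 24 arrays, 2 with only the arrays compared, and from 0 to 1 without an array. A replicate block changed no count by over 1.5 times (25, 11 and 11 lower in light, 32, 18 and 27 higher with ABA). The replicate numbers share only a number, as replicate differences correlated between -0.137 and 0.190. The rule took 141 probe sets at 2-fold, 14 at 4-fold, 23 with WT dark at least 200, and from 34 to 62 without a WT array. Quantile normalization moved the median of all probe sets by -0.28, -0.16 and -0.11 in the light comparisons of atmyc2, cop1-6 and the double mutant, by -0.34 and -0.17 for ABA against darkness in atmyc2 and cop1-6, by -0.15 for double mutant against atmyc2 in darkness, and by 0.14 for their difference of light response. The share of promoters holding each motif was not run. Dim blue light signals under 19.1 limit the size of the largest ABA rises.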
